A study of Mus musculus with 28 samples.

Results

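NF-kB is a family of transcription factors built from 5 Rel-homology subunits, and several of the genes it switches on encode proteins that shut it off again. The genes described here are 10 by name: the subunit genes Nfkb1, Nfkb2, Rela, Relb and Rel, the inhibitor genes Nfkbia, Nfkbie, Nfkbiz and Tnfaip3, and Traf1, which encodes a signalling adaptor. Of the 10, 9 were measured, by 19 probe sets among those of 18193 genes on the array, and Nfkb1 was not analysed here. The brightest probe set of a gene, by its mean over the arrays, gave the value, and the others served as a check. Rela, Relb and Rel had no other probe set, so this check was not available for them.

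The study measured total RNA of primary mouse B-cell lymphomas on Affymetrix arrays before and after senescence-inducing chemotherapy. There were 28 arrays from 14 lymphomas, 1 ADR-treated and 1 untreated culture of each, so every lymphoma is 1 pair and no culture was repeated. The ADR group had 5 days of Adriamycin (doxorubicin, a drug that breaks DNA) at 0.05 µg/ml in culture, and its label gives it as senescent (TIS, for treatment-induced senescence). The untreated group came from the same lymphomas without drug. Both groups were C57BL/6 Emu-myc transgenic (Myc driven in the B-cell lineage by the Emu enhancer), both carried a Bcl2 retrovirus (MSCVpuro) that protects against apoptosis, both had been selected with puromycin, and both grew on irradiated NIH 3T3 fibroblasts. The age of the mice is not given. The lymphomas are called by their numbers in the labels.

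At rest, NF-kB dimers are held in the cytoplasm by IkB proteins, and the IKK kinase complex frees them by marking IkB for destruction. Rela and Rel act mainly in this canonical arm, while Relb with the processed product of Nfkb2 acts in the noncanonical arm that follows receptors such as CD40 and the BAFF receptor, both of which keep B cells alive. DNA breaks can also activate the complex through the kinase ATM, and NF-kB drives part of the secretory program of senescent cells.

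The start regions of these genes are shown because several of them are classic NF-kB targets. RefSeq promoter windows (GRCm38.p6, 250 bases before to 50 after the annotated start) were given for 7 of the 9 measured genes, 10 windows in all. A match to the 10-letter kB consensus, searched on both strands, stood in at least 1 window of 5 of them, Nfkb2, Rel, Nfkbia, Nfkbie and Tnfaip3, and in none of Rela and Traf1. Among all genes with a window, 5.14% held such a match. The windows below are those of genes whose changes moved together (Nfkb2 and Tnfaip3), of the IkBα gene, and of the 2 genes without a match; capitals mark consensus matches, and a match describes letters, not a bound site. They lie at chr19:46304487-46304786 on the plus strand for Nfkb2, chr10:19015361-19015660 on the minus strand for Tnfaip3, chr12:55492598-55492897 on the minus strand for Nfkbia, chr19:5637291-5637590 on the plus strand for Rela and chr2:34961723-34962022 on the minus strand for Traf1.
Nfkb2: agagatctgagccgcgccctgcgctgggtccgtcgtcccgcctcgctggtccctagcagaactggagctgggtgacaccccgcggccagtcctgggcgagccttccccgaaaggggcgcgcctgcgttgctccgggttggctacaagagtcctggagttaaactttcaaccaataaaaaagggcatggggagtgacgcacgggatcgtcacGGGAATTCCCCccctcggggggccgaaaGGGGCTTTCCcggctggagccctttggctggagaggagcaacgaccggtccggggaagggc
Tnfaip3: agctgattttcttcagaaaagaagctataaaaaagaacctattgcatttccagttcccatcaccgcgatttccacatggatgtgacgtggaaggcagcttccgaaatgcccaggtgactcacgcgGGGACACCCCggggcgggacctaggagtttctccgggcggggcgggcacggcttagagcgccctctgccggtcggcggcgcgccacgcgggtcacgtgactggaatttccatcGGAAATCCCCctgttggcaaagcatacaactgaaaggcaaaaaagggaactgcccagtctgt
Nfkbia: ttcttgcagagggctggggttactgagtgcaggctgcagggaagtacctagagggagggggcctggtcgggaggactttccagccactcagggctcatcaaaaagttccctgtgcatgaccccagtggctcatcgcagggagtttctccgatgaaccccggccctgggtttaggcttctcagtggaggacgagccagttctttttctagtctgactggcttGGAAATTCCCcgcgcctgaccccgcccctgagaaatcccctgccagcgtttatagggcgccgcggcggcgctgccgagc
Rela: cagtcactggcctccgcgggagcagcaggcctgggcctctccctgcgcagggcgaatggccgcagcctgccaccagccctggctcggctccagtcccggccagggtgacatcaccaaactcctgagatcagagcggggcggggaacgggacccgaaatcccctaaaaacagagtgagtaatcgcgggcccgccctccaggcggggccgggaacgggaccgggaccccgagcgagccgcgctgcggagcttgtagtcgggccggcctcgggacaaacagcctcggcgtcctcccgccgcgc
Traf1: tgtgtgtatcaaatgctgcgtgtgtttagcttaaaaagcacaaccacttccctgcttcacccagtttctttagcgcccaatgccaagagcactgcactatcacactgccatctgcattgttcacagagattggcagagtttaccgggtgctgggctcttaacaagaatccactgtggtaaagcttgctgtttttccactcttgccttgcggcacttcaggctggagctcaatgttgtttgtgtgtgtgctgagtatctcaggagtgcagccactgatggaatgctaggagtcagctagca
In the Nfkb2 window GGGAATTCCC begins 39 bases before the start and overlaps a second match, and GGGGCTTTCC begins 11 bases before it. Tnfaip3 has GGGACACCCC at 125 and GGAAATCCCC at 12 bases before the start. Nfkbia has GGAAATTCCC at 29 bases before the start. Nfkb2 has 3 windows and Tnfaip3 has 2, and the first of each is printed. Of those not printed, the second Nfkb2 window holds GGAATGTCCC and GGGACTTTCC, the third holds GGGACTTTCC again where the windows overlap, and the second Tnfaip3 window holds no match. Rel has GGGAAATCCC at 92 and Nfkbie GGGGGATTCC at 106 bases before the start.

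The 2 arrays of a lymphoma correlated at 0.271 to 0.615 in their deviations from the group means, while arrays of unlike lymphomas had a median r of -0.0785. Each was the other's best match in 10 lymphomas but not in 1467, 2949, 5766 and 6054. The ADR array of lymphoma 1570 had a 3′ minus 5′ Gapdh signal of 0.917, where the next highest was 0.384. In lymphoma 9584 the Y-linked gene Eif2s3y stood at 8.61 in the ADR array and 4.74 in the untreated one. A second Y-linked gene, Kdm5d, stood at 7.20 in the ADR array and 7.17 in the untreated array of 9584. The labelled cell type was checked on the B-cell gene Cd79a, which was 8.58 to 11.86 (median 10.21) in ADR arrays and 9.96 to 11.86 (median 10.97) in untreated arrays. A second B-cell gene, Ms4a1, was less even, at 5.24 to 11.77 (median 8.43) in ADR arrays and 5.455 to 10.6 (median 7.72) in untreated arrays. Markers of other cell types were measured as well. The mean of 24 fibroblast markers ranged from 5.03 to 9.20 (median 6.89) in ADR arrays and from 4.82 to 5.61 (median 4.99) in untreated arrays, and 22 of the 24 rose and 0 fell. The mean of 15 macrophage markers ranged from 6.22 to 9.29 (median 7.97) in ADR arrays and from 5.10 to 8.27 (median 6.54) in untreated arrays, and 10 of the 15 rose and 0 fell. Of 9 B-cell markers 0 rose and 4 fell. Of 6 T and NK cell markers 0 rose and 0 fell, with Ncr1 at no more than 4.17 on any array. Of 7 granulocyte markers 2 rose, with S100a8 at a median of 6.54 in ADR and 4.16 in untreated arrays and Elane at no more than 4.85 on any array. These marker counts are of genes with a limma adjusted p under 0.05, which 15.3% of all genes passed as higher and 13.4% as lower. In bulk RNA, fewer cells of a type and less RNA per cell cannot be told apart.

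After ADR, 4 of the 9 measured genes were higher and 0 were lower (limma with lymphoma as a block, Benjamini-Hochberg adjusted over 18193 genes at 0.05): the subunit gene Rela, the inhibitor genes Nfkbie and Nfkbiz, and the adaptor gene Traf1. Over all genes 15.3% were called higher and 13.4% lower. The count of 0 lower was also 0 at an unadjusted p under 0.05. All 9 estimates were positive, and the median change of the 9 was 0.48 on the log2 scale, against -0.0011 for all genes. Without lymphoma 1467 the count was 7, and without all 4 lymphomas whose partner was not the best match it was 8; without 1570 and 9584 it was 3.

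Rela, the subunit of the canonical arm with a strong activation domain, was the most even of the 9. It ranged from 9.11 to 9.79 (median 9.35) in ADR arrays and from 8.54 to 9.18 (median 8.82) in untreated arrays on the log2 scale. Every lymphoma was higher after ADR, and 11 of the 14 ADR arrays stood above all untreated arrays, so the groups overlapped in only a few. The change was 0.53 ± 0.06 (SE, n = 14 pairs), 1.44-fold, with an adjusted p of 2.11e-05 by limma. Single lymphomas changed by 0.07 (9583) to 0.90 (3769). The exact sign-flip test, two-sided, gave p = 0.000122, the smallest that 16384 flips can give.

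The noncanonical pair had positive changes in most lymphomas and lay close to the threshold, so that their calls depended on the lymphomas and on the processing. Nfkb2, whose precursor p100 is itself an IkB-like inhibitor and whose product p52 is a subunit, ranged from 7.24 to 8.60 (median 7.96) in ADR arrays and from 6.60 to 8.91 (median 7.50) in untreated arrays. Its level was higher after ADR in 13 of 14 lymphomas, and the exception was 1467, whose untreated array held the highest value of all 28. The change was 0.40 ± 0.14 (SE, n = 14 pairs) with adjusted p = 0.0509 by limma. Relb ranged from 6.00 to 7.76 (median 7.21) in ADR arrays and from 5.86 to 7.66 (median 6.54) in untreated arrays. The groups overlapped over most of their range, and 1467 again had the highest untreated value. The Relb change was 0.43 ± 0.17 (SE, n = 14 pairs), positive in 11 of 14 lymphomas, with adjusted p = 0.0747 by limma. Leaving 1467 out gave 0.52 (limma adjusted p = 0.00150) for Nfkb2 and 0.54 (limma adjusted p = 0.0126) for Relb. Leaving out 5043 instead, where Relb changed by -0.68, gave 0.51 for Relb (limma adjusted p = 0.0289). The 11 lymphomas that the labels trace to an earlier series gave 0.55 for Relb (limma adjusted p = 0.0394) and 0.38 for Nfkb2 (limma adjusted p = 0.127). The second Nfkb2 probe set passed, at 0.25 (limma adjusted p = 0.0229 over 34945 probe sets), as did the mean of both (0.32, limma adjusted p = 0.0209). With lymphoma as a random block both genes passed (limma adjusted p of 0.0304 for Nfkb2 and 0.0333 for Relb), as they did among the genes above the median level (0.0337 and 0.0493), and with quantile normalization repeated Nfkb2 passed (0.0464). Most alternatives did not pass: 25 for Nfkb2 and 24 for Relb kept the direction without a call, 1 and 2 reversed, and 7 and 6 passed. Both genes missed in the sign-flip test (adjusted p of 0.0825 for Nfkb2 and 0.113 for Relb). They also missed without 403 and 5560 (limma adjusted p of 0.145 and 0.168).

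Rel, encoding the c-Rel subunit of lymphocytes, spread most widely among the subunit genes. It ranged from 5.84 to 7.89 (median 6.88) in ADR arrays and from 5.26 to 8.41 (median 6.48) in untreated arrays. Both the highest value of the gene, in the untreated array of 1467, and the lowest were untreated. Its change was 0.48 ± 0.23 (SE, n = 14 pairs), positive in 10 of 14 lymphomas, with adjusted p = 0.137 by limma, and lay between -1.39 in 1467 and 1.77 in 9584. Without 1467 it was 0.62 with a limma adjusted p of 0.0293.

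**Figure D1:**
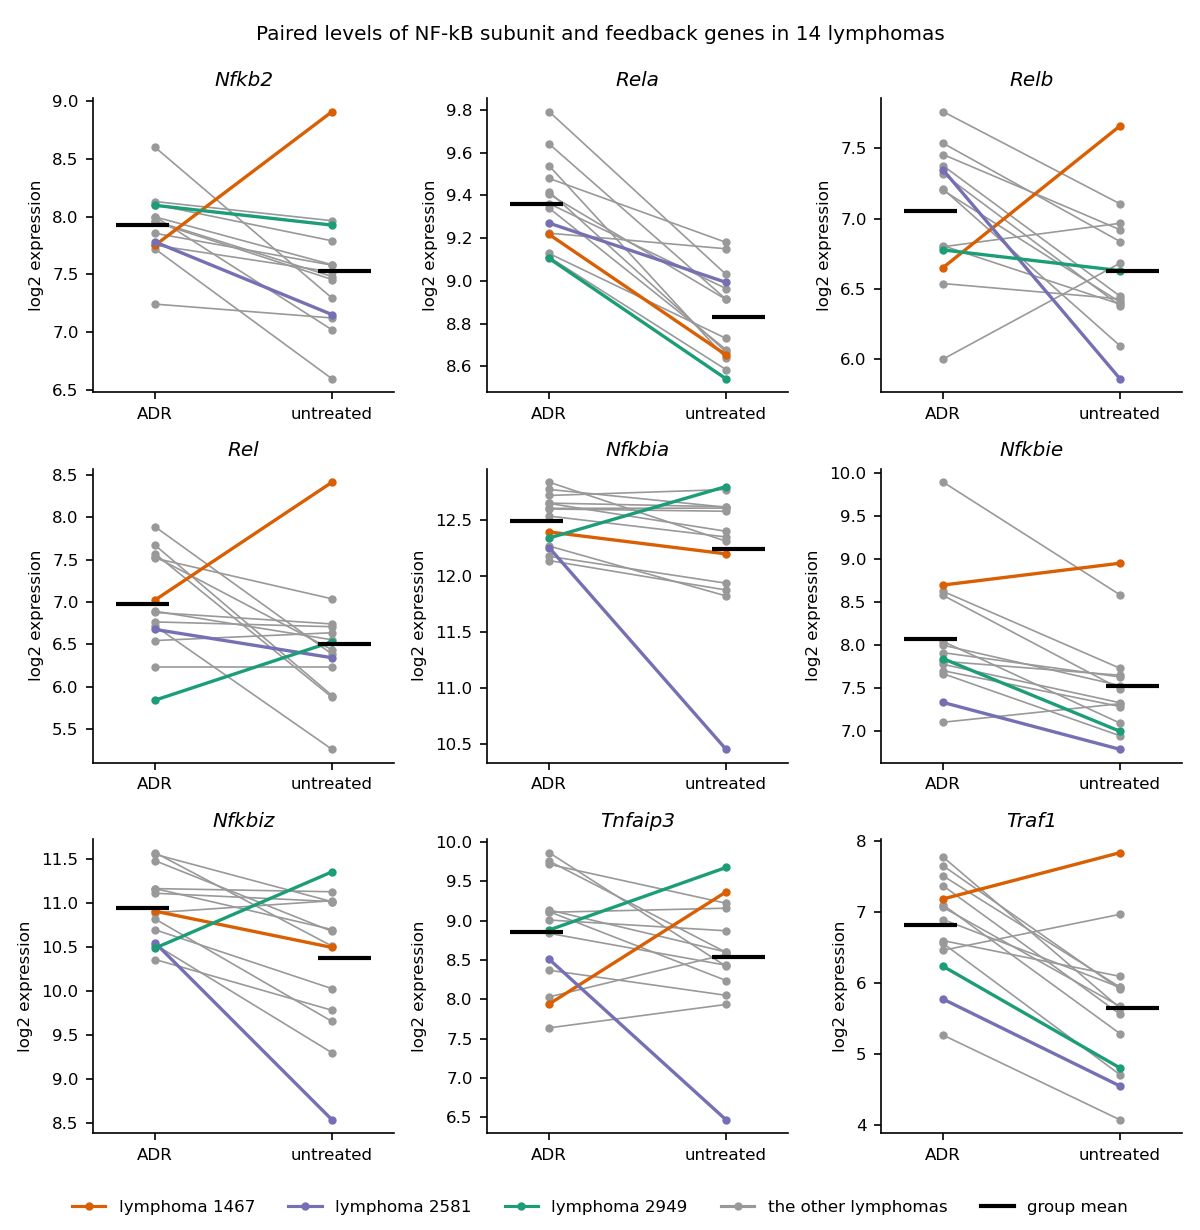
Level of each gene (log2 expression, y axis, scale differs by panel) in the ADR and the untreated array of 14 lymphomas; a line joins the arrays of 1 lymphoma, black bars are group means and 3 lymphomas are coloured. Rela lines all run higher at ADR, 1467 has the highest untreated Nfkb2, Relb, Rel, Nfkbie and Traf1, and 2581 has the lowest untreated Nfkbia, Nfkbiz and Tnfaip3.

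Among the inhibitors, Nfkbie and Nfkbiz rose. Nfkbie, encoding IkBε, an IkB that holds Rela and c-Rel dimers in the cytoplasm, ranged from 7.10 to 9.90 (median 7.88) in ADR arrays and from 6.79 to 8.96 (median 7.41) in untreated arrays. The groups overlapped, yet 12 of 14 lymphomas were higher after ADR, the exceptions being 1467 and 5043. The change was 0.55 ± 0.12 (SE, n = 14 pairs), 1.46-fold, with adjusted p = 0.00204 by limma, and the other Nfkbie probe set gave 0.56 (adjusted p = 0.00375 by limma over 34945 probe sets).

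Nfkbiz encodes IkBζ, a nuclear member of the IkB family that works as a co-regulator on a subset of NF-kB targets, Il6 among them. It ranged from 10.36 to 11.57 (median 10.90) in ADR arrays and from 8.53 to 11.35 (median 10.59) in untreated arrays. Only 3 ADR arrays stood above all untreated arrays, while the lowest untreated arrays had no counterpart after ADR. The change was 0.58 ± 0.17 (SE, n = 14 pairs), 1.49-fold, positive in 12 of 14 lymphomas, with adjusted p = 0.0187 by limma. This call was the least stable of the 4: the other 2 probe sets gave 0.40 and 0.50 with limma adjusted p of 0.123 and 0.196, and the mean of all 3 gave 0.49 with 0.0610. Without 1570 and 9584 it was 0.49 with a limma adjusted p of 0.0713. In the 11 lymphomas of the earlier series alone, where Relb passed, Nfkbiz was 0.51 with a limma adjusted p of 0.0919.

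Nfkbia and Tnfaip3, the genes of the classic fast feedback loop, did not pass the test. Nfkbia encodes IkBα, the inhibitor made anew after each NF-kB pulse. Its level lay between 12.14 and 12.84 (median 12.57) in ADR arrays and between 10.45 and 12.80 (median 12.37) in untreated arrays, so both groups shared their upper range and only untreated arrays reached below. The change was 0.26 ± 0.13 (SE, n = 14 pairs), positive in 11 of 14 lymphomas, with adjusted p = 0.149 by limma. Lymphoma 2581 alone changed by 1.80, and without it the mean change was 0.14. The other 4 Nfkbia probe sets gave 0.11 to 0.37, with limma adjusted p of 0.0638 to 0.590.

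Tnfaip3 encodes A20, a ubiquitin-editing enzyme that takes apart signalling complexes upstream of IKK. It ranged from 7.64 to 9.86 (median 8.94) in ADR arrays and from 6.47 to 9.67 (median 8.58) in untreated arrays, with wide overlap. The change was 0.31 ± 0.22 (SE, n = 14 pairs; 95% interval -0.17 to 0.78), positive in 9 of 14 lymphomas, with adjusted p = 0.354 by limma. It was 0.17 without 2581 and 0.44 without 1467, and passed in neither. The other Tnfaip3 probe set gave 0.13 (limma adjusted p = 0.739 over 34945 probe sets).

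Traf1, an adaptor that joins TRAF2 and IAP proteins at TNF receptors, had the largest change of the 9. It ranged from 5.27 to 7.78 (median 6.98) in ADR arrays and from 4.07 to 7.84 (median 5.66) in untreated arrays. The highest value was that of the untreated array of 1467, and the bulk of the ADR arrays lay above the bulk of the untreated ones. The change was 1.18 ± 0.21 (SE, n = 14 pairs), 2.26-fold, with adjusted p = 0.000503 by limma. It was positive in 12 of 14 lymphomas and negative in 1467 (-0.65) and 403 (-0.51). A second, dimmer Traf1 probe set gave 0.51 (limma adjusted p = 0.0292).

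Lymphomas differed in how many of the 9 genes were higher after ADR. All 9 were higher in 2581, 3594, 5560, 7050 and 9584, 8 in 1570, 3769 and 6054, 7 in 403, 5766 and 9583, 6 in 5043, 5 in 2949 and 3 in 1467. Among all genes, the share higher after ADR ran from 40.9% in 403 to 54.9% in 9583, and was 51.7% in 1467. The median change of the 9 was lowest in 1467, at -0.65, and highest in 2581, at 1.23. In 1467 the untreated array was the highest of all untreated arrays for Nfkb2 (8.91), Rel (8.41), Relb (7.66), Nfkbie (8.96) and Traf1 (7.84), while Rela still changed by 0.56. In 2581 the untreated array was the lowest for Nfkbia (10.45), Nfkbiz (8.53), Tnfaip3 (6.47), Relb (5.86) and Nfkbie (6.79). Lymphoma 2949 had the highest untreated Nfkbia (12.80), Nfkbiz (11.35) and Tnfaip3 (9.67), and these changed by -0.46, -0.87 and -0.79 there. Beside these values stand the marker lists: the fibroblast mean changed by -0.02 in 1467, the lowest of the 14, and the macrophage mean by 3.12 in 2581 and 0.37 in 2949, the highest and lowest. Their part in the results was not tested at the level of single lymphomas.

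**Figure D2:**
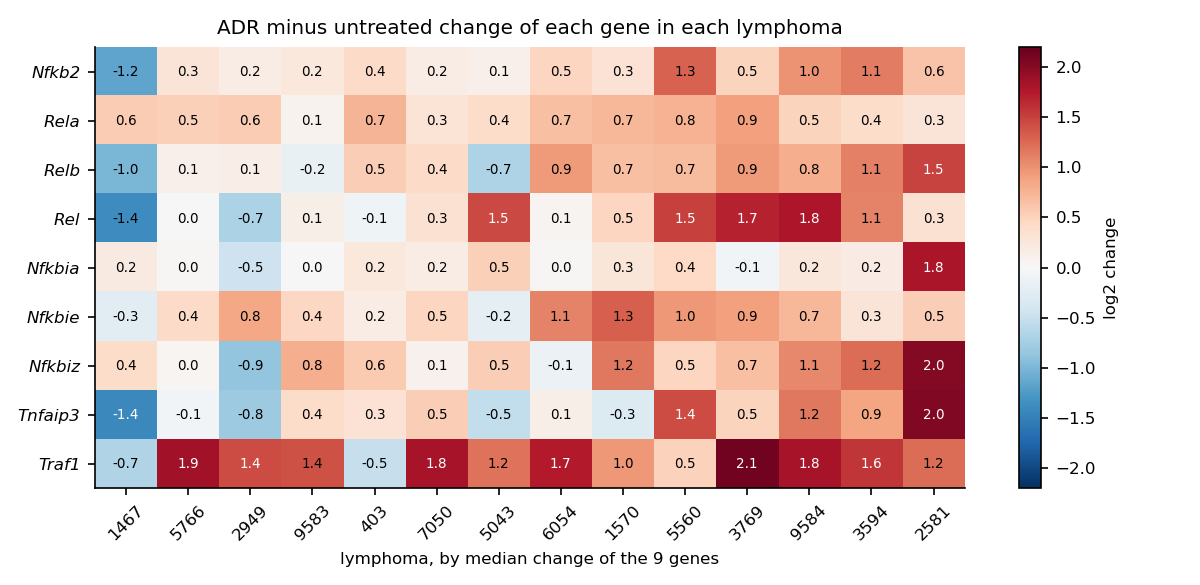
ADR minus untreated change (log2, colour and number) of the 9 genes (rows) in 14 lymphomas (columns, ordered by the median change of the genes). The row of Rela is positive throughout, and 1467 on the left is negative for 6 of the 9 genes while 2581 on the right is positive for all 9.

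The changes of Nfkb2, Relb and Tnfaip3 went together across lymphomas, and Rela stood outside this group. Over 36 pairs of genes and 14 lymphomas, 5 correlations passed at a permutation p adjusted over the 36. Nfkb2 and Tnfaip3 had r = 0.80 (adjusted permutation p = 0.0117; Spearman rho 0.78, adjusted permutation p = 0.0254), and 0.66 without 1467 and 5560. Relb and Tnfaip3 had r = 0.79 (adjusted permutation p = 0.0117; rho 0.71, adjusted permutation p = 0.0739), and 0.64 without 1467 and 5043. Nfkb2 and Relb had r = 0.77 (adjusted permutation p = 0.0131; rho 0.85, adjusted permutation p = 0.0104), and 0.70 without 1467 and 5560. The pair that encodes the noncanonical dimer was thus among the 3 with the highest r. For Nfkb2 and Rel r was 0.74 (adjusted permutation p = 0.0167), but rho was 0.56 (adjusted permutation p = 0.261) and r without 1467 and 5560 was 0.49. For Nfkbia and Nfkbiz r was 0.75 (adjusted permutation p = 0.0259) with rho 0.49 (adjusted permutation p = 0.265), and it was 0.21 without 2581 and 2949, so this relation rests on those lymphomas. Within the 11 lymphomas that the labels trace to an earlier series, these 5 r were 0.79, 0.83, 0.83, 0.82 and 0.81 in the order given; the other 3 lymphomas are too few for a value. The median r of the 8 pairs that hold Rela was -0.03, against 0.59 for those of Tnfaip3 and 0.37 over all 36 pairs.

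Lymphomas kept their order of Nfkbie level through treatment, and for the other genes this was not shown. Untreated and ADR levels of Nfkbie correlated at r = 0.76 (permutation p = 0.00350, adjusted over 9 genes 0.0315; rho 0.73, adjusted 0.0398), at 0.77 within the 11 lymphomas, and at the lower value of 0.54 without 1467 and 1570. For Nfkbia r was 0.60 (permutation p = 0.0129, adjusted 0.0580; rho 0.62, adjusted 0.0978). Traf1, Nfkbiz, Rela and Tnfaip3 had r of 0.53, 0.51, 0.42 and 0.23, with adjusted permutation p of 0.1355, 0.1355, 0.2405 and 0.659. For Nfkb2, Relb and Rel r was 0.14, -0.11 and -0.03, with adjusted permutation p from 0.785 to 0.929.

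ADR arrays were more alike than untreated arrays in Nfkbia and Nfkbiz, though not past the adjusted threshold. The SD over lymphomas of Nfkbia was 0.23 in ADR and 0.61 in untreated arrays (ratio 0.38, exact test swapping the arrays within pairs p = 0.0167, adjusted over 9 genes 0.101). That of Nfkbiz was 0.41 in ADR and 0.81 in untreated arrays (ratio 0.50, exact p = 0.0223, adjusted 0.101). Without lymphoma 2581 the SDs were 0.23 in ADR and 0.33 in untreated arrays for Nfkbia, and 0.41 in ADR and 0.64 in untreated arrays for Nfkbiz. An SD ratio under 0.5 was found in 2.27% of all genes. Over all 14 lymphomas Nfkbia was under this bound and Nfkbiz, at 0.501, was not. Of the 9 genes 7 had the smaller SD in ADR arrays, as did 41.7% of all genes.

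The change of each gene was set against the change of the fibroblast and of the macrophage markers, and none of the 18 relations passed after adjustment. Tnfaip3 and the fibroblast mean had r = 0.64 (permutation p = 0.0132, adjusted over 18 relations 0.0790; rho 0.68, adjusted 0.0808), 0.74 within the 11 lymphomas and 0.70 without 403 and 5560. Nfkb2 and the fibroblast mean had r = 0.60 (permutation p = 0.0193, adjusted 0.0867; rho 0.70, adjusted 0.0808), 0.72 within the 11 and 0.58 without 403 and 5560. For Relb r was 0.55 (adjusted permutation p = 0.153; rho 0.58, adjusted 0.188), 0.52 within the 11 and 0.67 without 403 and 5560. Rela had r = 0.26 (adjusted permutation p = 0.666; rho 0.24, adjusted 0.821) and Traf1 r = -0.09 (adjusted permutation p = 0.852; rho 0.13, adjusted 0.873). Traf1 and the fibroblast mean had r = 0.62 without 403 and 5560 and its value thus depends on those lymphomas. For the macrophage mean, Nfkbia had r = 0.71 (permutation p = 0.0118, adjusted 0.0790) and Nfkbiz 0.70 (permutation p = 0.00701, adjusted 0.0790), with rho of 0.26 and 0.50 (adjusted 0.821 and 0.326). Without 2581 and 2949 these r were -0.10 and 0.24, so they rest on those lymphomas.

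**Figure D3:**
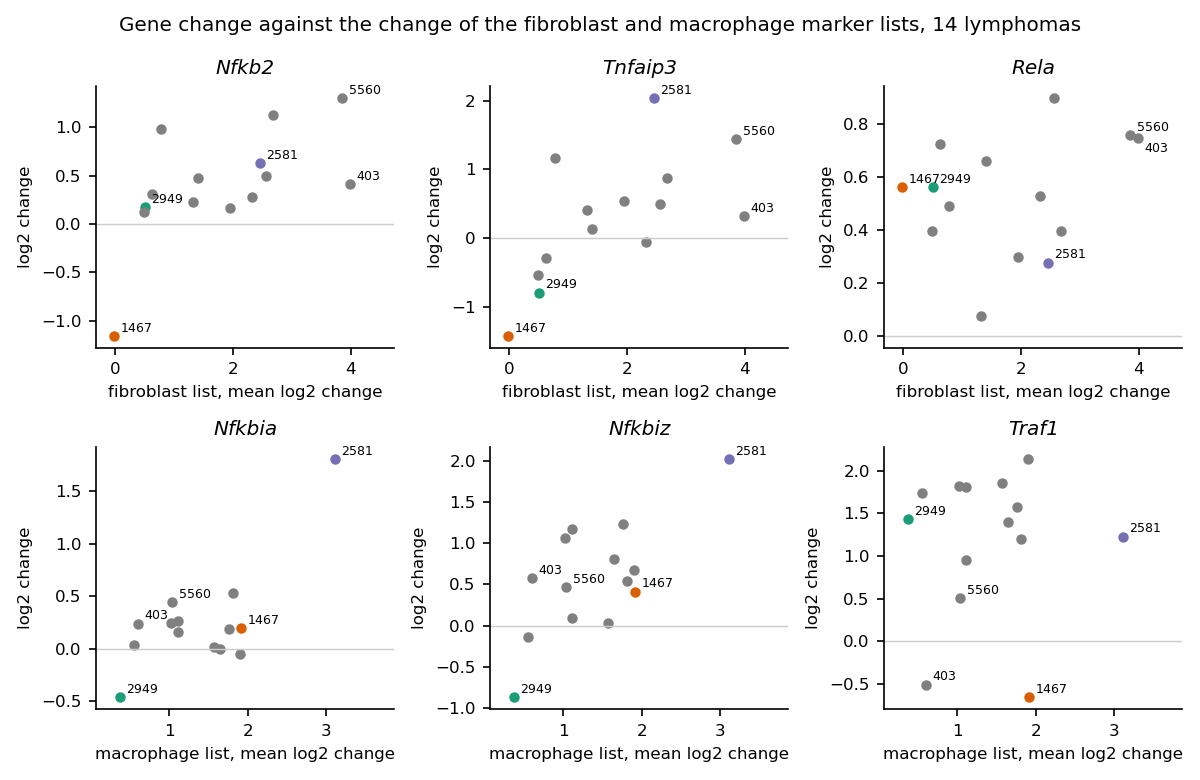
ADR minus untreated change of 6 genes (log2, y axis) against the change of the mean of a marker list (log2, x axis; fibroblast above, macrophage below), 1 point per lymphoma with 5 lymphomas labelled. Nfkb2 and Tnfaip3 are lowest in 1467, where the fibroblast list changed by -0.02, Rela is above 0 at every fibroblast change, and the slopes of Nfkbia and Nfkbiz hang on 2581 and 2949.

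With the fibroblast change as a covariate in the fit, the value at no fibroblast change passed the threshold for 2 of the 9 genes. Traf1 stood at 1.29 ± 0.37 (SE, n = 14 pairs; limma adjusted p = 0.0382) and Rela at 0.45 ± 0.11 (limma adjusted p = 0.0210), and both stayed past the threshold, which 5.49% of all genes passed upward in this fit. Nfkbie was 0.48 ± 0.21 (limma adjusted p = 0.166) and Nfkbiz 0.39 (limma adjusted p = 0.510). Nfkb2, Relb, Rel and Nfkbia stood at -0.09, -0.10, 0.08 and 0.10, with limma adjusted p from 0.857 to 0.940. Tnfaip3 was -0.51 ± 0.31 (limma adjusted p = 0.361). This value sits where lymphoma 1467 lies on the fibroblast axis. When 1467 was left out of the same fit, Traf1 was 1.86 (limma adjusted p = 0.00939), Rela 0.41 (limma adjusted p = 0.0856) and Nfkbie 0.70 (limma adjusted p = 0.0741), and only Traf1 passed. In that fit Nfkb2 was 0.21, Relb 0.16, Rel 0.51 and Nfkbia 0.07 (limma adjusted p of 0.576, 0.823, 0.524 and 0.926). Nfkbiz was 0.38 (limma adjusted p = 0.627) and Tnfaip3 -0.25 (0.762). The values of Nfkb2, Relb and Rel at no fibroblast change thus moved with 1467. The lymphomas with the largest fibroblast rise were 403 and 5560; without them Rela was 0.49, Nfkbie 0.55, Nfkbiz 0.59 and Traf1 1.37, and all 4 passed (limma adjusted p of at most 0.0418).

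**Figure D4:**
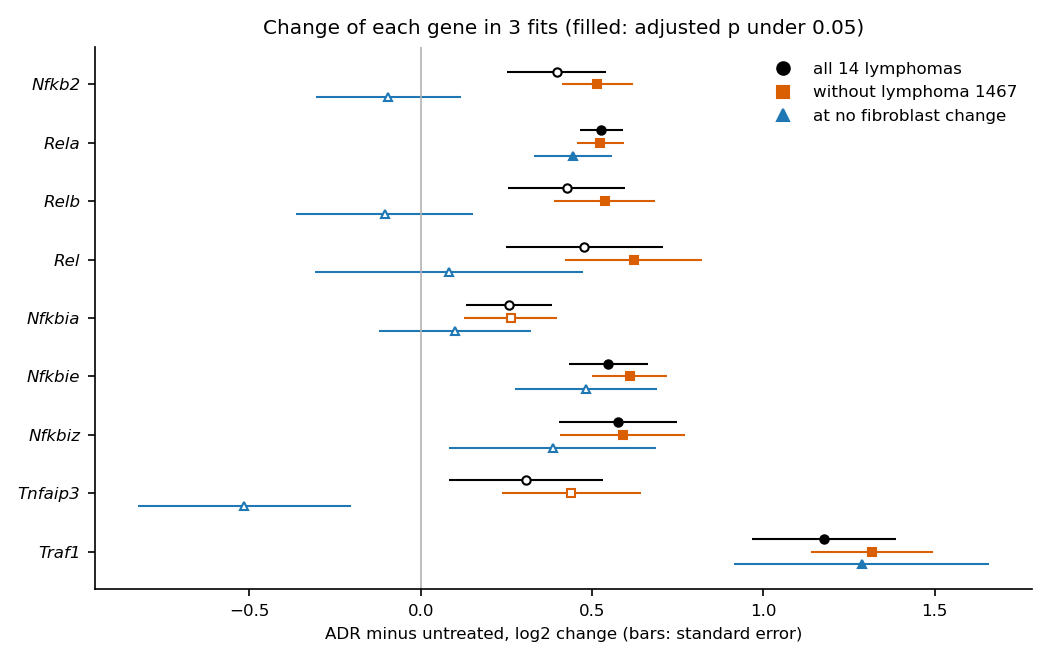
ADR minus untreated change of each gene (log2, x axis; bars are standard errors) from the fit over 14 lymphomas (circles), without lymphoma 1467 (squares) and at no fibroblast change (triangles); filled marks have an adjusted p under 0.05. Rela and Traf1 are filled in all 3, and Nfkb2, Relb, Rel and Tnfaip3 move toward or below 0 at no fibroblast change.

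The rest of the pathway was described with 5 lists of 81 genes by role, 73 of them measured, of which 35 rose and 7 fell after ADR, against 15.3% and 13.4% of all genes. Upstream, 7 of 12 receptor genes rose and 2 fell (median change 0.73). Tlr2, a receptor of bacterial lipoproteins, rose by 1.73 ± 0.25 (SE, n = 14 pairs; limma adjusted p = 7.71e-05), Tnfrsf1b, the TNF receptor that binds TRAF2 and TRAF1, by 1.44 ± 0.22 (limma adjusted p = 0.000151) and Tlr4, the endotoxin receptor, by 1.13 ± 0.19 (limma adjusted p = 0.000300). The 2 receptor genes that fell encode receptors of B cells: Tnfrsf13c, the BAFF receptor that feeds the noncanonical arm, averaged 7.74 in ADR and 8.99 in untreated arrays (change -1.25 ± 0.28, limma adjusted p = 0.00309, lower in all but 1 lymphoma), and Tnfrsf13b, encoding TACI, changed by -0.47 ± 0.16 (limma adjusted p = 0.0382). At no fibroblast change Tlr2 was 1.45 (limma adjusted p = 0.0428), Tnfrsf1b 0.74 (0.184), Tlr4 0.36 (0.419) and Tnfrsf13c -0.45 (0.619), and Tnfrsf13b turned in direction, to 0.21 (0.60). Cd40, named after its values were seen, changed by 0.28 (limma adjusted p = 0.180) and passed at no fibroblast change (0.74, limma adjusted p = 0.0376).

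Of 17 measured adaptor and kinase genes, 5 rose and 2 fell, beside 15.3% and 13.4% of all genes, with a median change of 0.07. Ikbkg, encoding NEMO, the regulatory subunit of IKK, averaged 8.35 in ADR and 7.66 in untreated arrays and was higher in 14 of 14 lymphomas (0.69 ± 0.08 SE; limma adjusted p = 1.38e-05). Ikbke, an IKK-related kinase, rose by 1.16 ± 0.24 (limma adjusted p = 0.00176) and Myd88, the adaptor of Toll-like and IL-1 receptors, by 0.55 ± 0.12 (limma adjusted p = 0.00256). Traf5 and Traf6, adaptors of the TRAF family, changed by -0.52 ± 0.12 and -0.35 ± 0.08 (limma adjusted p of 0.00404 and 0.00353). Neither Map3k14, encoding the noncanonical kinase NIK (0.07 ± 0.07, limma adjusted p = 0.511), nor Ikbkb, encoding the catalytic IKKβ (0.05 ± 0.08, limma adjusted p = 0.704), passed the test. At no fibroblast change Ikbkg (0.48, limma adjusted p = 0.0252) and Myd88 (0.97, 0.00378) still passed and Ikbkb did (0.36, 0.0448). Ikbke (0.70, limma adjusted p = 0.336), Traf5 (-0.24, 0.546), Traf6 (-0.23, 0.356) and Map3k14 (0.07, 0.826) did not.

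Of 5 genes of the DNA damage arm, 1 rose and 2 fell, beside 15.3% and 13.4% of all genes. Parp1, a sensor of DNA breaks, averaged 10.59 in ADR and 11.43 in untreated arrays and was lower in every lymphoma (-0.84 ± 0.12 SE, limma adjusted p = 9.28e-05). Atm, the break-activated kinase, changed by -0.65 ± 0.12 (limma adjusted p = 0.000616) and Erc1, which joins the IKK complex in this arm, by 0.27 ± 0.09 (limma adjusted p = 0.0316). All 3 missed the threshold at no fibroblast change (limma adjusted p of 0.225, 0.231 and 0.908).

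Other inhibitor genes numbered 12 measured, of which 4 rose and 1 fell (median 0.11), beside 15.3% and 13.4% of all genes. Rnf11, part of the A20 complex, rose by 1.17 ± 0.26 (limma adjusted p = 0.00298) but stood at -0.21 at no fibroblast change (limma adjusted p = 0.605). Tnip1, which binds A20, rose by 0.49 ± 0.10 (limma adjusted p = 0.00123) and N4bp1, a restraint on NF-kB signalling, by 0.38 ± 0.08 (limma adjusted p = 0.00245). Commd1, which promotes the turnover of RelA, changed by -0.41 ± 0.07 (limma adjusted p = 0.000542). At no fibroblast change Commd1 (-0.47, limma adjusted p = 0.0324) and N4bp1 (0.48, 0.0455) still passed and Tnip1 (0.35, 0.224) did not. Otud7b, encoding a deubiquitinase and named after its values were seen, changed by -0.14 (limma adjusted p = 0.483) and passed as lower at no fibroblast change (-0.72, limma adjusted p = 0.00687).

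Downstream, 18 of 27 measured target genes rose and 0 fell, beside 15.3% and 13.4% of all genes, with a median change of 0.76. Cxcl2, a neutrophil chemokine, averaged 8.35 in ADR and 5.44 in untreated arrays and was higher in 14 of 14 lymphomas (2.91 ± 0.26 SE; limma adjusted p = 2.88e-06). Ptgs2, encoding cyclooxygenase-2, rose by 3.02 ± 0.57 (limma adjusted p = 0.000789) and Ccl2, a monocyte chemokine, by 2.86 ± 0.38 (limma adjusted p = 4.73e-05). At no fibroblast change Cxcl2 was 2.28 (limma adjusted p = 0.00457), Ptgs2 0.66 (0.658) and Ccl2 1.39 (0.102). Over the 73 genes, 14 rose and 2 fell at no fibroblast change. Of all 18193 genes, 998 (5.49%) rose and 849 fell in that fit. With the macrophage change as the covariate instead, 0 of the 73 genes and 0 of all genes passed in either direction. That fit gives the value at no macrophage change, which lies below the lowest observed change of 0.37.

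**Figure D5:**
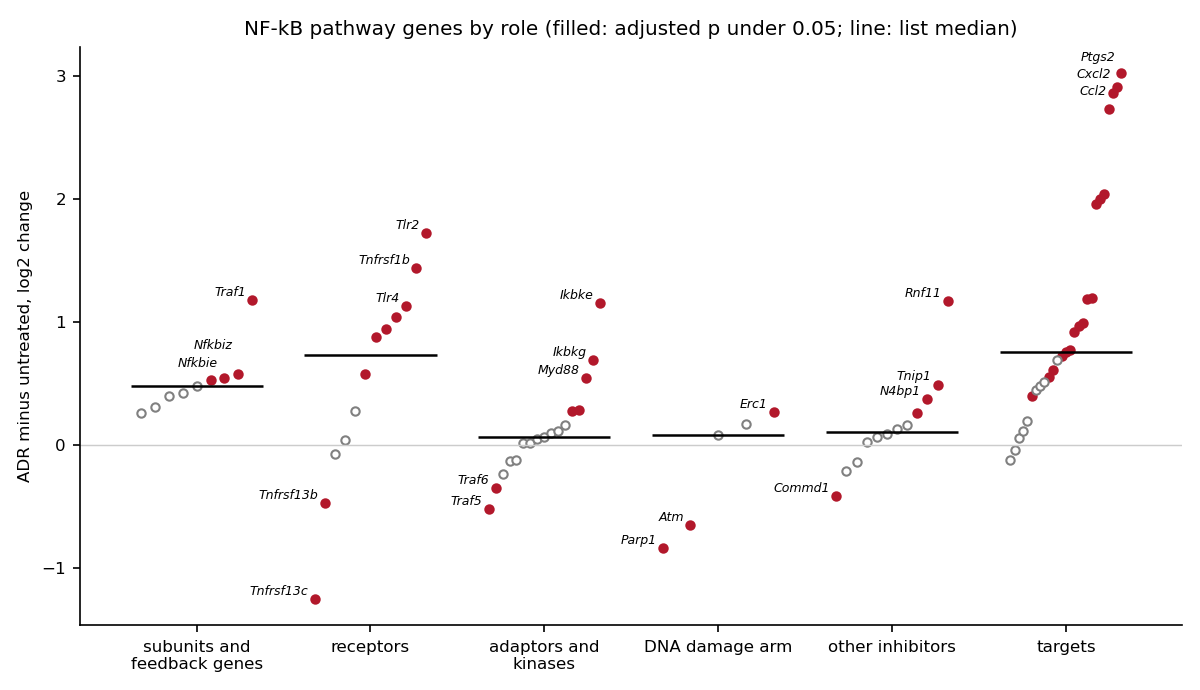
ADR minus untreated change (log2, y axis) of the 9 genes and of the 73 measured pathway genes by role (x axis), 1 point per gene, sorted within a role; filled points have an adjusted p under 0.05 and lines are medians. Targets and receptors hold the largest rises, with medians of 0.76 and 0.73, and Tnfrsf13c and Parp1 the largest falls.

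The ADR change was also compared between the 11 lymphomas of the earlier series and the other 3, 5043, 9583 and 9584. No difference passed for any of the 9 genes (limma adjusted p of 0.864 to 0.999), and 1 gene of 18193, or 0.0055%, passed in all. Rela changed by 0.58 ± 0.20 (SD, n = 11) in the earlier lymphomas and by 0.32 ± 0.22 (SD, n = 3) in the others, with an exact permutation p of 0.0742 over 364 splits. Rel changed by 0.30 ± 0.91 (SD, n = 11) in the earlier lymphomas and by 1.12 ± 0.87 (SD, n = 3) in the others (exact permutation p = 0.190).

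For each gene the other genes whose 14 changes were most like it, by Pearson r over the lymphomas, are given as a description without a test. For Nfkb2 they were Rnf19b (r = 0.92) and Pex13 (0.92), for Relb Mmrn1 (0.92) and Kcmf1 (0.90), and for Rel Nr4a1 (0.88) and Exoc1 (0.87). Rela had the lowest, with Zfp275 and Chrm3 (both 0.81). For Nfkbia they were the macrophage marker Mrc1 (0.91) and 1700105P06Rik (0.87), for Nfkbie Pla2g2c (0.90) and Atxn2l (0.83), and for Nfkbiz Ercc5 (0.90) and Map3k8 (0.89), a kinase gene of the same signalling network. Mrc1 was dim, averaging 3.89 in ADR and 3.81 in untreated arrays, where the median of gene means was 5.84. Its own change was 0.08 (limma adjusted p = 0.692). Tnfaip3 was most like the AP-1 subunit gene Junb (0.91) and Bcl10 (0.89), an adaptor gene of B-cell receptor signalling to IKK. Traf1 was most like Tmod1 (0.88) and Tent2 (0.86).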

How the data were processed

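The deposited table holds log2 expression values of 45101 probe sets on 28 Affymetrix arrays. RMA (background correction, normalization between arrays and a summary per probe set) and Partek 6.5 are named in the submitters' processing notes. The printed coordinates are those of RefSeq; the build behind the array annotation is not given in the sources used here. The supplied annotation (dated 2016) gave 1 gene for 34945 probe sets, several for 932 and none for 9160, and 64 were controls; only the first kind was used. RefSeq's gene table held the Entrez identifier of 34741 of these. The probe set with the highest mean stood for each of the 9010 genes with more than 1, which left 18193 genes. The paired test was limma 3.58.1 (R 4.3.3; lmFit, eBayes) on all genes, lymphoma being a block, with Benjamini-Hochberg adjustment and a threshold of 0.05.

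The pairing comes from the lymphoma identifiers in the labels; partner arrays correlated at a median r of 0.483 in deviations from the group means. P-values measure the spread between lymphomas, each with 1 array per group. For arrays the precision is limited by their number, and dim genes have compressed changes. Correlations used 100000 permutations. The code was tested on simulated data. Plots were made in Python 3.11.15 with matplotlib 3.10.9.

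The genes and the pathway and marker lists were chosen with earlier results of these data known. Genes named were the members, up to 3 per pathway list and direction with the largest change among those called, and the 2 most alike genes per member; Map3k14, Ikbkb, Cd40, Otud7b and the marker genes were named outside this rule. Alternatives changed the block, the probe set, the filter on dim genes, the normalization, the eBayes options and the lymphomas, or added a marker covariate. Listed genes without a named probe set were not analysed here.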

Additional observations from a re-analysis of the deposited data

How the results depend on the processing

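Calls of single genes moved with the pairing, 1 lymphoma and the marker covariates. Without the replicate block, that is unpaired, 2 of the 9 genes were called (6 at an unadjusted p under 0.05), and Nfkbie and Nfkbiz lost their calls (limma adjusted p = 0.108 and 0.0831); the construction drops the pairing, which the labels give. Leaving out each lymphoma in turn gave 4 to 7 called members, 2419 to 2862 genes higher, 2082 to 2572 lower, and 32 to 38 pathway genes higher and 6 to 7 lower; the count of 7 was without 1467. Without 1467, 2949, 5766 and 6054, an alternative chosen after seeing the data, 8 were called. In the other 3 lymphomas alone, 0 members passed (3 at an unadjusted p under 0.05), with 1 gene higher (1633 unadjusted), 0 lower (1073), 0 pathway genes higher (31) and 0 lower (3), and Relb reversed to -0.018; this fit has 3 pairs. With the fibroblast covariate 2 members, 998 genes higher and 849 lower, 14 pathway genes higher and 2 lower passed, and Nfkb2 (-0.095), Relb (-0.10) and Tnfaip3 (-0.51) reversed. With 1467 left out as well, chosen after seeing the data, 1 member, 487 genes higher and 473 lower, and 10 pathway genes higher and 1 lower passed, and Tnfaip3 reversed to -0.25. With the macrophage covariate, whose value at no change lies below the lowest observed change of 0.37, 0 members (3 at an unadjusted p under 0.05), 0 genes higher (1294), 0 lower (1357), 0 pathway genes higher (11) and 0 lower (4) passed, and Nfkbia (-0.44), Nfkbiz (-0.36) and Tnfaip3 (-0.24) reversed. For the 11 lymphomas against the other 3, exact permutation called 0 genes (949 at an unadjusted p under 0.05), where limma called 1 (999). The cause of these moves was not tested beyond what each alternative leaves out or adds. Under the other settings (random block, other probe set rules, dim-gene filter, centring, repeated quantile normalization, eBayes options, sign-flip test, without 403 and 5560, without 1570 and 9584, the 11 lymphomas alone) 3 to 6 members were called and none of their changes reversed.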
